A study of Caenorhabditis elegans with 12 samples.

Results

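The 10 genes described here belong to the circuit that balances the stem cell state of *C. elegans* germ cells against entry into meiosis. They are *lag-2*, *apx-1*, *glp-1*, *lag-1*, *lst-1*, *sygl-1*, *fbf-1*, *fbf-2*, *gld-2* and *nos-3*. They were chosen by their known function and matched to the files through WBcel235 sequence names. They are 10 of 21955 genes with a value, and all 10 passed the filter on low counts, as did 14539 genes in all. RNA-seq was carried out on polyadenylated RNA from whole synchronized adults grown at 20° on OP50, in 4 groups of 3 libraries: *fog-2(lf)* (strain JK574, allele *fog-2(q71)*) on the sixth day of adulthood, *fog-2(lf)* on the first day, wild type (strain N2) on the sixth day, and wild type on the first day. *fog-2(lf)* XX animals make no self-sperm. Wild-type hermaphrodites have self-sperm on the first day, when they were collected before embryos were visible, and have used it up by the sixth day. The animals were whole worms, so fewer germ cells and less RNA per germ cell cannot be told apart.

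In the gonad of *C. elegans*, the distal tip cell, a single somatic cell, presents Notch ligands to the germ cells next to it. Their Notch receptor GLP-1 is then cleaved, and its intracellular part joins the DNA-binding protein LAG-1 to switch on *lst-1* and *sygl-1*. LST-1 and SYGL-1 work with the RNA-binding proteins FBF-1 and FBF-2, which repress mRNAs that drive germ cells into meiosis. GLD-2 and NOS-3 act on the opposite side and promote entry into meiosis. Most of this regulation is local, in the distal end of the gonad, and much of it is translational, so mRNA levels of whole animals show only a part of it.

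Libraries held 21162593 to 38775999 estimated counts. The mutated gene *fog-2* had 3.53, 3.42 and 3.19 CPM in sixth-day *fog-2(lf)*, against 53.5, 54.7 and 58.5 CPM in sixth-day wild type. On the first day it had 4.86, 3.92 and 4.18 CPM in *fog-2(lf)*, against 52.8, 44.4 and 46.0 CPM in wild type, so that each library matched its genotype label. CPM are counts relative to the library size after TMM scaling, which sets the middle of the genes level between libraries. The TMM factors were 1.03 to 1.07 in sixth-day and 0.924 to 0.975 in first-day *fog-2(lf)*, and 1.14 to 1.17 in sixth-day and 0.822 to 0.888 in first-day wild type. With library totals only, the median of all genes moved by 0.42 (log2) for age in wild type, and 81.0% of the genes called there were higher, against 48.1% with TMM. Changes below are therefore relative to the middle of all genes. The 3 limma fits on TPM, used below as alternatives, also had no scaling beyond library totals. For age in wild type their median over all genes was 0.32 to 0.41 (log2), and 80.9% to 81.0% of the genes called were higher. Calls under library totals and under limma are therefore not separate checks of a change. Markers of the germ line summed to 8920–9630 CPM in *fog-2(lf)* on the sixth day and 8130–9490 CPM on the first, and to 7640–8040 CPM in wild type on the sixth day and 8480–9660 CPM on the first. Markers of sperm summed to at most 26.7 CPM in every library except replicate 2 of first-day wild type, which had 187 CPM (the sperm-rich library).

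The 10 genes differed widely in level but kept nearly the same order in every group. The most abundant per length was *sygl-1*, at 184 ± 18.8 TPM in sixth-day and 215 ± 25.1 TPM in first-day *fog-2(lf)*, and 213 ± 29.6 TPM in sixth-day and 174 ± 31.3 TPM in first-day wild type (SD, n = 3 each). It was above *lst-1*, its partner, in every library. After *lst-1* came *nos-3*, *apx-1* and *glp-1*, whose neighbours in this order overlapped in all 4 groups. *lag-1* and *gld-2* overlapped each other in all 4 groups and changed places in first-day wild type. *fbf-1* lay below them and above *fbf-2*, and the pair overlapped on the first day in both genotypes. The lowest was *lag-2*, at 0.136 to 1.47 TPM over all libraries.

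**Figure D1:**
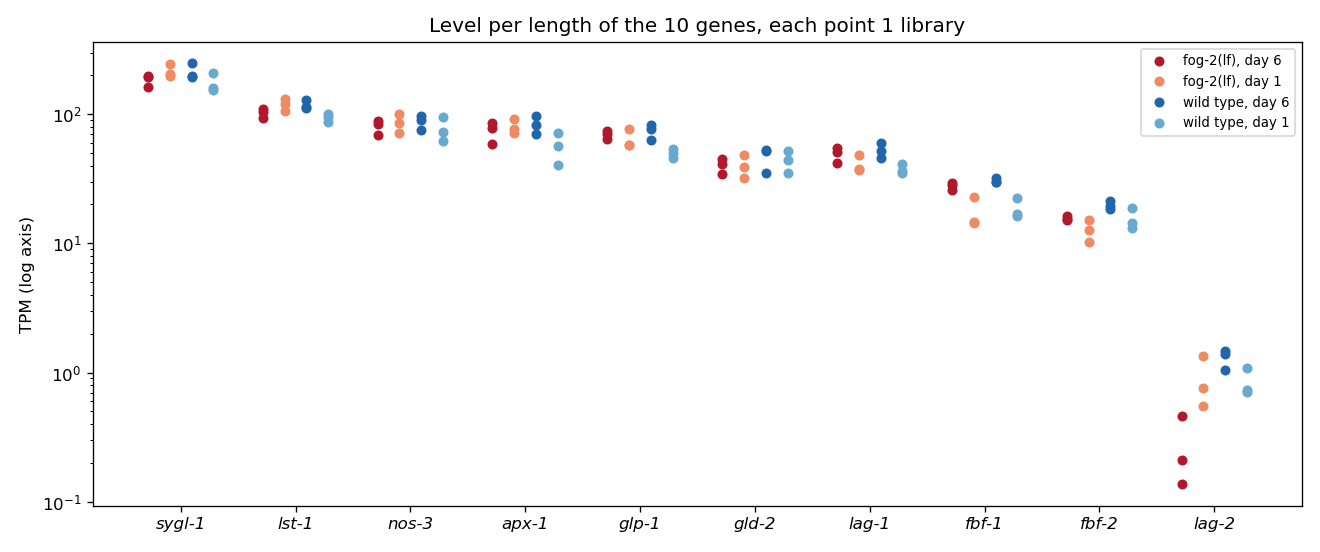
Level per length (TPM, log axis) of the 10 genes, ordered by their mean in first-day wild type. Each point is 1 library and each colour 1 of the 4 groups. *sygl-1* is highest in every group and *lag-2* lowest, at 0.136 to 1.47 TPM.

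Of the 10 genes 5 were called in at least 1 comparison, and in each comparison the share of the 10 was close to or below that of all genes. Among all genes, 48.8% were called for age in wild type alone, so the share called at least once was no lower. For age in *fog-2(lf)*, 4 were called at an adjusted p under 0.1 (edgeR, Benjamini-Hochberg over all genes tested): *fbf-1* rose, and *lag-2*, *lst-1* and *sygl-1* fell. Of all genes 39.2% were called in this comparison, 18.1% higher and 21.2% lower. For age in wild type, 1 was called, *fbf-1*, which rose, beside 48.8% of all genes (23.5% higher and 25.4% lower). Between genotypes on the sixth day 1 was called, *lag-2*, lower in *fog-2(lf)*, beside 20.3% of all genes (9.83% higher and 10.4% lower). On the first day 2 were called, *lst-1* higher and *fbf-2* lower in *fog-2(lf)*, beside 18.3% of all genes (7.72% higher and 10.5% lower). The interaction, which asks whether age acted differently in *fog-2(lf)* and in wild type, called 1, *lag-2*, which was negative, beside 15.2% of all genes (7.35% positive and 7.88% negative). The 4 comparisons between groups share libraries pairwise, so their calls are not independent. The remaining 5 genes, *glp-1*, *lag-1*, *apx-1*, *gld-2* and *nos-3*, were called in no comparison. With the sperm-rich library of first-day wild type left out, the calls for age in wild type and the interaction were the same, at 0.44 for *fbf-1* (edgeR adjusted p = 0.032) and −1.85 for *lag-2* (adjusted p = 0.095). Then 2 other genes, *apx-1* and *sygl-1*, were called higher in *fog-2(lf)* on the first day, and *lst-1* (0.20, adjusted p = 0.14) and *fbf-2* (−0.27, adjusted p = 0.19) were not.

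The typical change of the 10 genes was small. Its median size was 0.24 (log2) for age in *fog-2(lf)*, against 0.38 over all genes tested, and 0.17 for age in wild type, against 0.45. It was 0.10 for genotype on the sixth day, against 0.28 over all genes, and 0.22 on the first day, against 0.29. Most of the genes were measured closely, with a median standard error of 0.14 against 0.25 over all genes. The exception was *lag-2*, with 0.44 to 0.48, against 0.08 to 0.17 for the others. CPM of the groups compared did not overlap for 4 of the 10 genes for age in *fog-2(lf)* (50.5% of all genes), 1 for age in wild type (48.5%), 1 for genotype on the sixth day (44.0%) and 2 on the first day (26.3%).

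**Figure D2:**
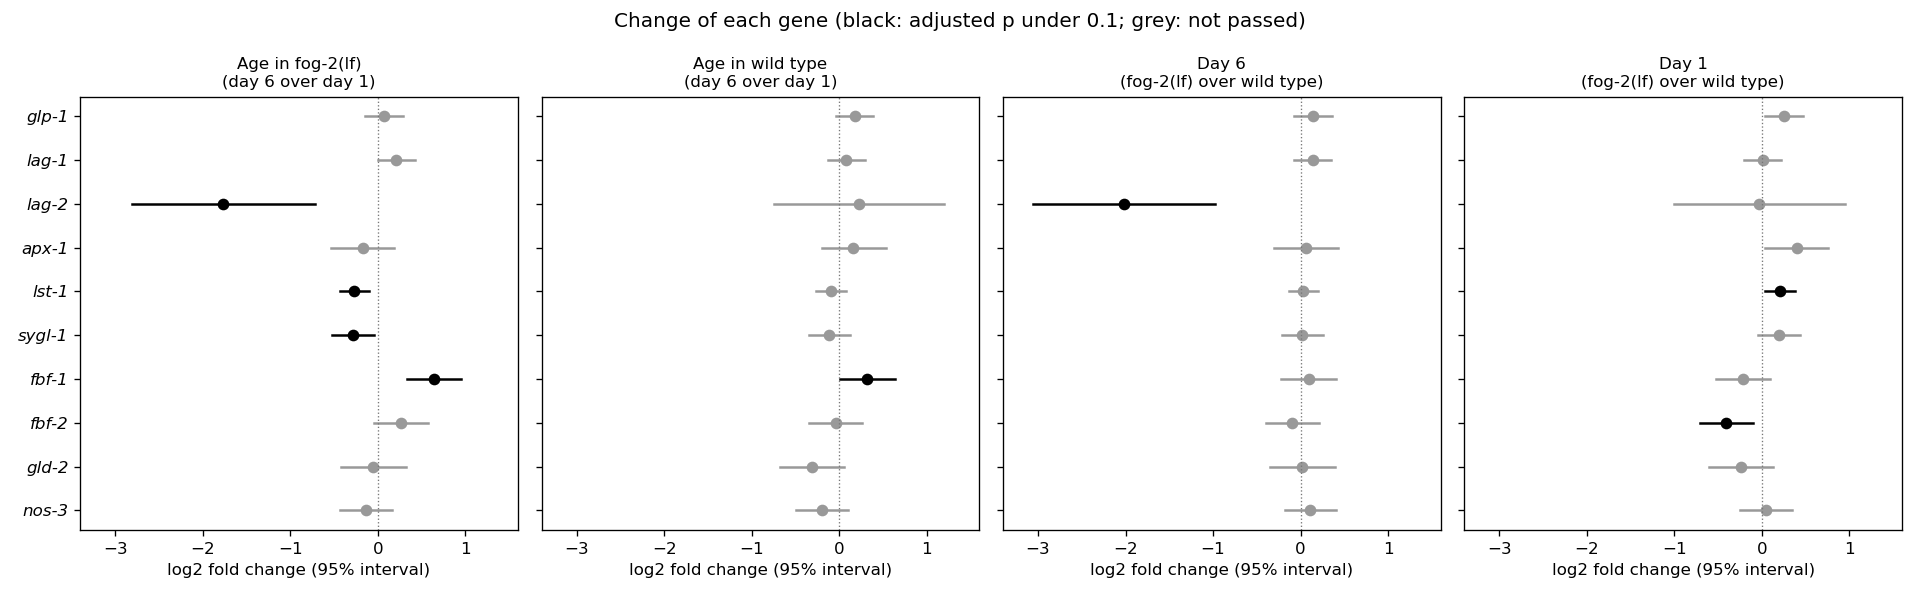
Log2 fold change of each gene in the 4 comparisons between groups, with its 95% interval from edgeR. Black points passed an adjusted p of 0.1 and grey points did not. Most intervals lie close to 0, and *lag-2* has the lowest values, −1.77 for age in *fog-2(lf)* and −2.02 for genotype on the sixth day.

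The Notch ligand *lag-2* (V:3188343-3190115) encodes the DSL-family protein of the distal tip cell. It was at 0.178, 0.565 and 0.248 CPM in *fog-2(lf)* on the sixth day, against 1.77, 0.666 and 1.01 CPM in *fog-2(lf)* on the first day. In wild type it was at 1.14, 1.55 and 1.41 CPM on the sixth day, against 1.04, 0.943 and 1.55 CPM on the first day. All libraries of sixth-day *fog-2(lf)* lay below all 9 others. *lag-2* fell with age in *fog-2(lf)* to 0.294 times its first-day level (95% interval 0.142 to 0.605, edgeR adjusted p = 0.016), and was at 0.246 times the wild-type level on the sixth day (0.12 to 0.508, adjusted p = 0.022). In wild type its change with age was 1.17-fold (95% interval 0.596 to 2.29, adjusted p = 0.72). The 2 age effects differed by −1.99 (log2, SE 0.65, edgeR adjusted p = 0.081).

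These *lag-2* values rest on few reads. The libraries of sixth-day *fog-2(lf)* held 5, 20 and 10 counts, those of first-day *fog-2(lf)* 55, 25 and 31, those of sixth-day wild type 37, 48 and 46, and those of first-day wild type 29, 28 and 27. The model of *lag-2* in the files is 1209 bases long, which is the coding length in the annotation, so reads from its UTRs were not counted. The calls for age in *fog-2(lf)* and for genotype on the sixth day held under all 23 alternatives. The interaction was called with 4 of the 12 libraries left out in turn, and missed the threshold with any 1 of the others left out (adjusted p up to 0.18). The distal tip cell belongs to the somatic gonad. Of 15 tested genes listed for the somatic gonad and its gap junctions with germ cells, 2 rose and 3 fell with age in *fog-2(lf)*. These were 33.3%, beside 39.2% of all genes. On the sixth day 1 was higher and 4 were lower in *fog-2(lf)* (33.3%, beside 20.3%). The list is not limited to the somatic gonad. Its 18 genes summed to 589–599 CPM in *fog-2(lf)* on the sixth day and 560–585 CPM on the first, and to 596–636 CPM in sixth-day wild type. The innexin gene *inx-14* alone averaged 119 CPM in sixth-day wild type. The part of the listed genes in the *lag-2* values was not tested.

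The other ligand, *apx-1* (V:3210196-3223221), is a DSL-family gene best known for signalling between blastomeres of the early embryo. It was at 163, 203 and 212 CPM in *fog-2(lf)* on the sixth day and 199, 237 and 215 CPM on the first, and at 162, 184 and 207 CPM in wild type on the sixth day and 123, 200 and 171 CPM on the first. The groups overlapped in each comparison. Its largest estimate was for genotype on the first day, 1.32-fold (95% interval 1.02 to 1.69, edgeR adjusted p = 0.14), which was called under 4 of 23 alternatives. Age in wild type (0.16) was also called under 4 of 23, library totals only (0.58) and the 3 limma fits, all without scaling beyond library totals.

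**Figure D3:**
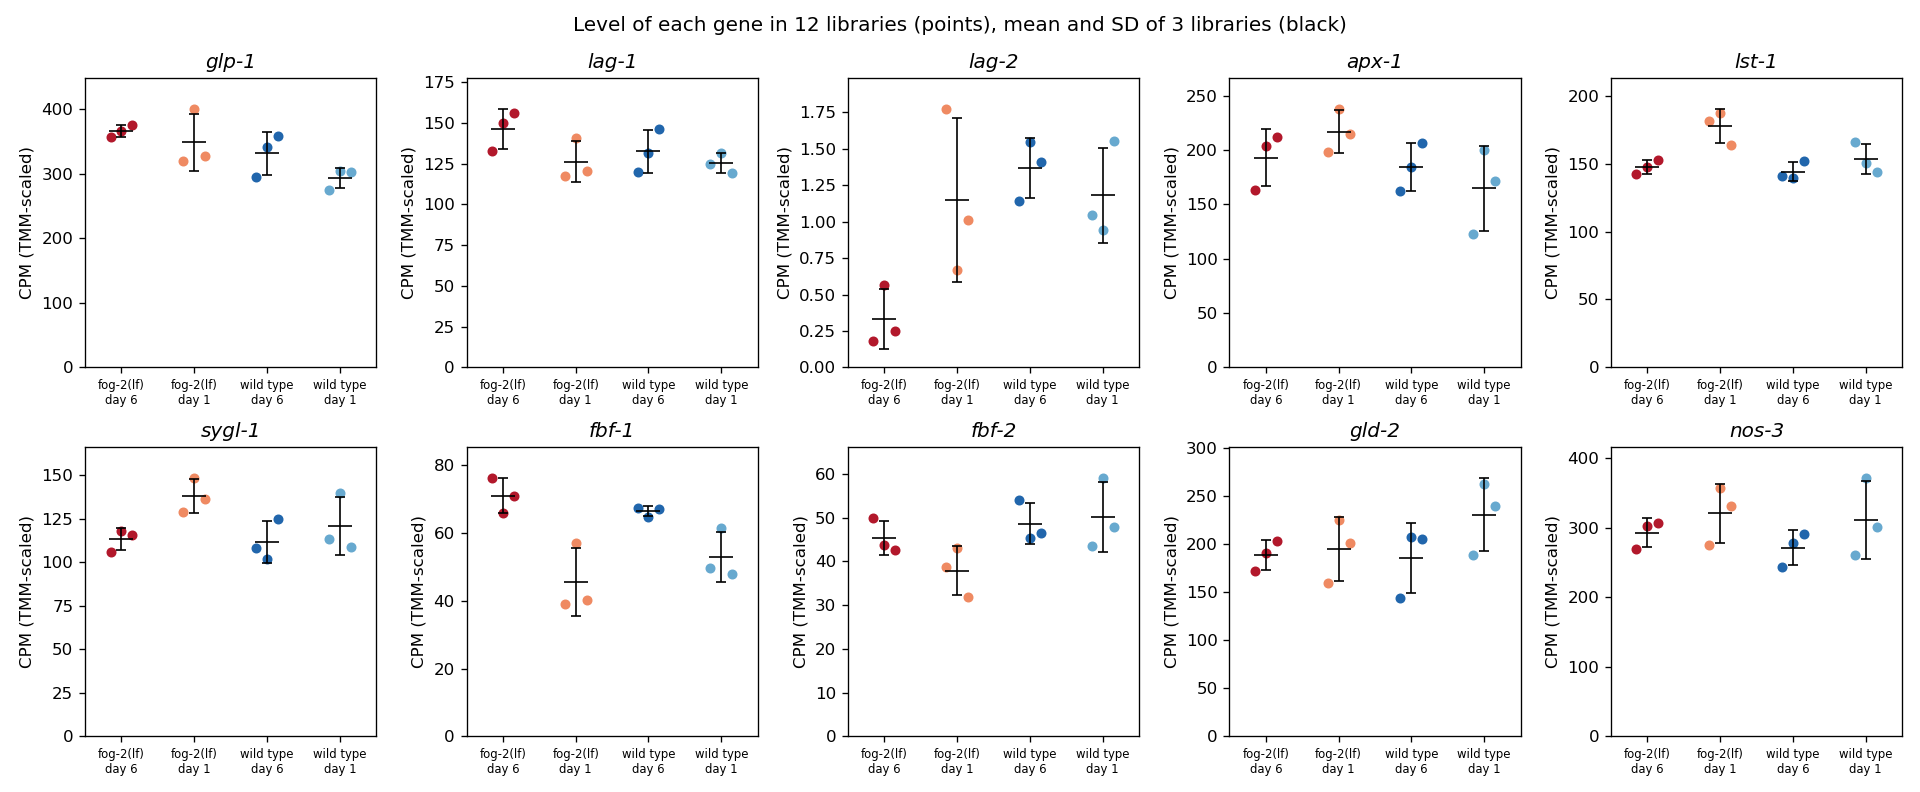
TMM-scaled CPM of each gene, with 1 panel per gene and 1 point per library. Black lines are the mean and SD of 3 libraries. *lag-2* is low in all sixth-day *fog-2(lf)* libraries (0.178 to 0.565 CPM), and the sixth-day libraries of *fbf-1* lie above the first-day ones in both genotypes.

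The receptor *glp-1* (III:9092241-9099698) is the Notch receptor of germ cells and early blastomeres. It was at 357, 366 and 375 CPM in *fog-2(lf)* on the sixth day and 320, 400 and 327 CPM on the first, and at 295, 342 and 359 CPM in wild type on the sixth day and 276, 304 and 302 CPM on the first. On the first day every *fog-2(lf)* library was above every wild-type one, by 1.19-fold (95% interval 1.02 to 1.38), but the test was not passed (edgeR adjusted p = 0.13). With age its level was 1.05-fold in *fog-2(lf)* (0.902 to 1.22) and 1.13-fold in wild type (0.971 to 1.31), neither passing the test. *glp-1* was called higher with age in wild type under 7 of 23 alternatives: at 0.60 with library totals only (log2, edgeR adjusted p = 0.00068), 0.26 with TMM from germline markers (0.017), 0.57 to 0.58 with limma, and with 2 of the 12 libraries left out in turn. Of these, library totals and the 3 limma fits had no scaling beyond library totals. The first-day genotype test was passed under 3 of 23, among them library totals (edgeR adjusted p = 0.031) and germline-marker TMM (0.058).

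Its effector *lag-1* (IV:6095407-6110655), the CSL-family DNA-binding protein of Notch signalling, was called in no comparison either. It was at 133, 150 and 156 CPM in *fog-2(lf)* on the sixth day and 118, 141 and 120 CPM on the first, and at 120, 131 and 146 CPM in wild type on the sixth day and 125, 132 and 119 CPM on the first. The groups overlapped in each comparison, and its largest estimate was 1.16-fold for age in *fog-2(lf)* (95% interval 0.999 to 1.34, edgeR adjusted p = 0.12). This estimate was called under 6 of 23 alternatives, and that for age in wild type (0.08) under 4 of 23. Those 4 were library totals only (0.50) and the 3 limma fits, all without scaling beyond library totals.

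The direct targets of GLP-1 signalling fell with age in *fog-2(lf)*. *lst-1* (I:10588501-10590465) was at 142.4, 147 and 153 CPM in *fog-2(lf)* on the sixth day, against 181, 188 and 164 CPM in *fog-2(lf)* on the first day. *sygl-1* (I:12483809-12486235) was at 106, 118 and 116 CPM in *fog-2(lf)* on the sixth day, against 129, 148 and 137 CPM in *fog-2(lf)* on the first day. For neither gene did the days overlap. *lst-1* fell to 0.831 times its first-day level (95% interval 0.74 to 0.933, edgeR adjusted p = 0.021), and *sygl-1* to 0.823 times (0.698 to 0.97, adjusted p = 0.069). The *lst-1* call held with each of the 12 libraries left out in turn and under 7 of 11 other settings, and was lost with library totals only (edgeR adjusted p = 0.32) and with limma on TPM (0.18). The *sygl-1* call held in only 10 of 23 alternatives, 7 of the 12 with a library left out and 3 of 11 other settings. The wild-type libraries among those left out are not in this comparison. Of the *fog-2(lf)* libraries left out, only replicate 1 of the first day kept the call (edgeR adjusted p = 0.08). The others lost it (0.1 to 0.22). The call was also lost with library totals only (edgeR adjusted p = 0.39), DESeq2 (0.13), RLE factors (0.12), no low-count filter (0.15) and limma (0.27), all with a negative sign.

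In wild type the days overlapped for both targets. *lst-1* was at 141, 139 and 152 CPM on the sixth day, against 166, 151 and 144 CPM on the first day. *sygl-1* was at 108, 102 and 125 CPM on the sixth day, against 114, 140 and 109 CPM on the first day. Neither passed the test, with −0.09 (log2, SE 0.08) for *lst-1* and −0.12 (SE 0.11) for *sygl-1*, and with library totals only both turned to higher, at 0.33 and 0.30 (edgeR adjusted p = 0.013 and 0.055). The interaction did not pass the test (edgeR adjusted p = 0.32 for *lst-1* and 0.52 for *sygl-1*), but was called under 4 of 22 alternatives for *lst-1* and 1 of 22 for *sygl-1*. On the first day *lst-1* was 1.16-fold higher in *fog-2(lf)* (95% interval 1.03 to 1.3, edgeR adjusted p = 0.099), although the groups overlapped, and this call was kept with 2 of the 12 libraries left out in turn.

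Ratios between genes of 1 library do not depend on the scaling between libraries. The TPM ratio of *lst-1* to its upstream receptor *glp-1* was 1.47, 1.49 and 1.48 in sixth-day *fog-2(lf)*, against 2.07, 1.71 and 1.83 in first-day *fog-2(lf)*. In wild type it was 1.76, 1.49 and 1.55 on the sixth day, against 2.2, 1.79 and 1.74 on the first day. The days did not overlap in *fog-2(lf)* and overlapped narrowly in wild type. With 3 libraries against 3, an exact permutation test cannot go below p = 0.10, and this ratio reached 0.10 in *fog-2(lf)* and 0.20 in wild type (two-sided). A test that exchanged the days within both genotypes together, chosen after the data were seen, gave a difference of −0.29 (log2, exact permutation p = 0.01, two-sided, 0.017 adjusted over 5 ratios).

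*sygl-1* moved in the same way relative to *glp-1*. Both ratios share *glp-1* as the denominator, so they are not independent. The *sygl-1* to *glp-1* ratio was 2.53 to 2.75 in sixth-day and 3.16 to 3.55 in first-day *fog-2(lf)*, and 2.53 to 3.12 in sixth-day and 3.07 to 3.92 in first-day wild type. Over both genotypes it differed by −0.32 (log2, exact permutation p = 0.01, two-sided, 0.017 adjusted, by the same test chosen after the data were seen). The ratio of *sygl-1* to *lst-1* was 1.78 ± 0.0623 in sixth-day and 1.82 ± 0.143 in first-day *fog-2(lf)*, and 1.8 ± 0.108 in sixth-day and 1.85 ± 0.305 in first-day wild type (SD, n = 3 each). It differed with age by −0.03 (log2, exact permutation p = 0.73, two-sided).

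The gene with the clearest rise was *fbf-1* (II:6078263-6080843), which encodes a PUF-family RNA-binding protein that represses mRNAs in germline stem cells. It was at 76.2, 65.9 and 71.0 CPM in *fog-2(lf)* on the sixth day, against 39.0, 57.1 and 40.4 CPM in *fog-2(lf)* on the first day. In wild type it was at 67.4, 64.7 and 67.1 CPM on the sixth day, against 49.7, 61.4 and 47.9 CPM on the first day. The days did not overlap in either genotype. *fbf-1* rose 1.56-fold with age in *fog-2(lf)* (95% interval 1.26 to 1.94, edgeR adjusted p = 0.0062), which held under all 23 alternatives. In wild type it rose 1.25-fold (1.01 to 1.56, adjusted p = 0.091). This call held with 4 of the 12 libraries left out in turn and under 6 of 11 other settings. Of the wild-type libraries left out, only replicate 2 of the first day kept the call (edgeR adjusted p = 0.032). The others lost it (0.14 to 0.24). The 6 settings included library totals and the 3 limma fits, all without scaling beyond library totals. The call was lost with DESeq2, RLE factors, no low-count filter and only the libraries compared. The age effects of the genotypes were not shown to differ (interaction 0.32, SE 0.20, adjusted p = 0.34).

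Its paralog *fbf-2* (II:6088863-6091480) lies 8019 bases away on the same strand and encodes a nearly identical protein. It was at 49.9, 43.7 and 42.7 CPM in *fog-2(lf)* on the sixth day and 38.7, 42.99 and 31.8 CPM on the first, and at 54.0, 45.4 and 46.4 CPM in wild type on the sixth day and 43.6, 59.0 and 47.9 CPM on the first. On the first day it was lower in *fog-2(lf)*, at 0.755 times the wild-type level (95% interval 0.61 to 0.933, edgeR adjusted p = 0.086), without overlap of the groups. This call held with 4 of the 12 libraries left out in turn and was lost when only the libraries compared were fitted (adjusted p = 0.22). Among those 4 were replicate 1 of sixth-day *fog-2(lf)* and replicate 1 of sixth-day wild type, which are not in this comparison. With age it changed by 1.2-fold in *fog-2(lf)* (0.971 to 1.48) and 0.969-fold in wild type (0.784 to 1.2), neither passing the test.

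*fbf-1* gained on *fbf-2* with age in both genotypes. Their TPM ratio was 1.73, 1.71 and 1.88 in sixth-day *fog-2(lf)*, against 1.14, 1.51 and 1.44 in first-day *fog-2(lf)*. It was 1.41, 1.62 and 1.64 in sixth-day wild type, against 1.29, 1.18 and 1.13 in first-day wild type. All sixth-day libraries lay above all first-day libraries of the same genotype. The ratio was 1.31-fold higher in *fog-2(lf)* and 1.29-fold higher in wild type (exact permutation p = 0.10 each, the smallest possible, two-sided). Over both genotypes it was 1.3-fold higher (exact permutation p = 0.005, the smallest possible, two-sided, 0.017 adjusted over 5 ratios, chosen after the data were seen). The counts of each paralog were not whole numbers in any of 12 libraries (tolerance 0.01), while their sum was whole in all 12, so reads that fit both genes were divided between them by kallisto. The part of this division in the ratio was not tested.

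**Figure D4:**
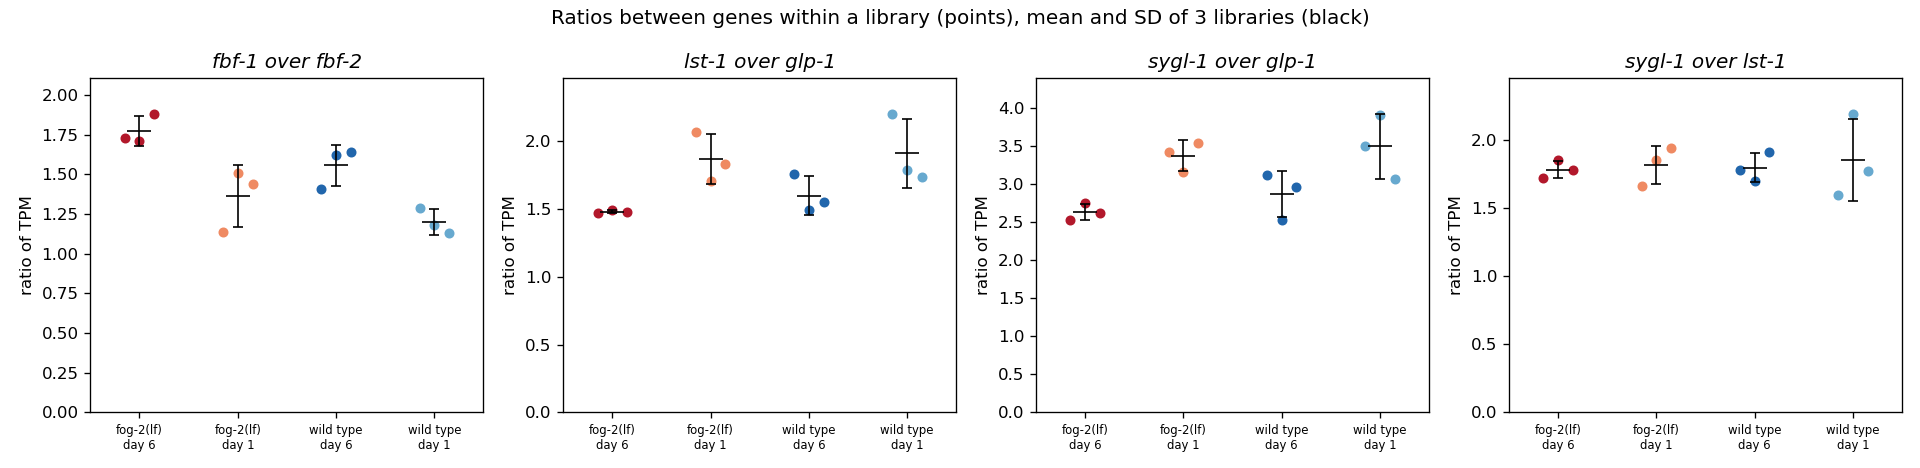
Ratios of TPM between pairs of genes, with 1 point per library and the mean and SD of 3 libraries in black. The *fbf-1* to *fbf-2* ratio is 1.71 to 1.88 in sixth-day *fog-2(lf)* and 1.13 to 1.29 in first-day wild type, and the *sygl-1* to *lst-1* ratio averages 1.78 to 1.85 in the 4 groups.

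The genes that promote meiotic entry were called in no comparison. *gld-2* (I:6369748-6386194), which encodes a cytoplasmic poly(A) polymerase, was at 172, 191 and 204 CPM in *fog-2(lf)* on the sixth day and 160, 225 and 201 CPM on the first, and at 144, 207 and 205 CPM in wild type on the sixth day and 189, 263 and 240 CPM on the first. *nos-3* (II:9746316-9750462), a Nanos-family gene, was at 269, 303 and 307 CPM in *fog-2(lf)* on the sixth day and 274, 357 and 331 CPM on the first, and at 243, 278 and 291 CPM in wild type on the sixth day and 260, 371 and 301 CPM on the first. All groups compared overlapped. The largest estimate for *gld-2* was 0.806-fold for age in wild type (95% interval 0.623 to 1.04, edgeR adjusted p = 0.16), and that for *nos-3* was 0.872-fold (0.711 to 1.07, adjusted p = 0.27) in the same comparison. Under 2 of 23 alternatives both were called lower with age in wild type, 1 of them without replicate 1 of first-day wild type, *gld-2* at −0.44 and *nos-3* at −0.31 (log2). With library totals only they turned positive, at 0.11 and 0.22, and were not called.

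Of the 22 isoforms of these genes in the files, 19 passed the filter on low counts. For age in *fog-2(lf)* 3 were called, beside 26.2% of all isoforms: those of *fbf-1* and *lag-2*, which have 1 each, and K08B4.1b of *lag-1*. K08B4.1b was at 8.03, 9.06 and 12.04 TPM in sixth-day *fog-2(lf)*, against 3.66, 5.9 and 5.71 TPM in first-day *fog-2(lf)*, without overlap, and rose by 0.88 (log2, SE 0.32, edgeR adjusted p = 0.083). In wild type it was at 9.24, 6.93 and 11.5 TPM on the sixth day, against 7.17, 3.26 and 4.27 TPM on the first day, which overlapped (adjusted p = 0.28). Between genotypes on the sixth day 1 isoform was called, that of *lag-2*, beside 6.91% of all isoforms. With edgeR, the age test in wild type, the first-day genotype test and the interaction called 0, beside 30.9%, 7.61% and 4.16% of all isoforms, and 1, 7 and 1 had an unadjusted p under 0.05. The main *lag-1* isoform, K08B4.1a, changed by −0.04 in *fog-2(lf)* (SE 0.14).

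A minor *gld-2* isoform, ZC308.1c, named after its values were seen, was highest in first-day wild type. It was at 0.263, 0.893 and 0 TPM in first-day *fog-2(lf)*, against 2.73, 3.76 and 2.45 TPM in first-day wild type. On the sixth day it was at 0.291, 0.475 and 0.224 TPM in *fog-2(lf)*, against 0.566, 1.09 and 1.16 TPM in wild type. All first-day wild-type libraries lay above all others, where it made up 5.49% to 7.83% of *gld-2* TPM, but the genotype test on the first day was not passed (−3.09, SE 1.11, edgeR adjusted p = 0.16). Another minor *gld-2* isoform, ZC308.1d, went the other way, at 0.495, 0 and 0.504 TPM in first-day *fog-2(lf)* and at most 0.00014 TPM in first-day wild type, and at 0.13, 0.00987 and 0.219 TPM in sixth-day *fog-2(lf)* and at most 0.0025 TPM in sixth-day wild type. It did not pass the genotype test on the first (edgeR adjusted p = 0.16) or the sixth day (0.21). Reads that fit several isoforms of 1 gene were divided between them by kallisto, and the part of this division was not tested. *nos-3* divided steadily into Y53C12B.3b, at 59.7% to 73.5% of its TPM, and Y53C12B.3a.

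**Figure D5:**
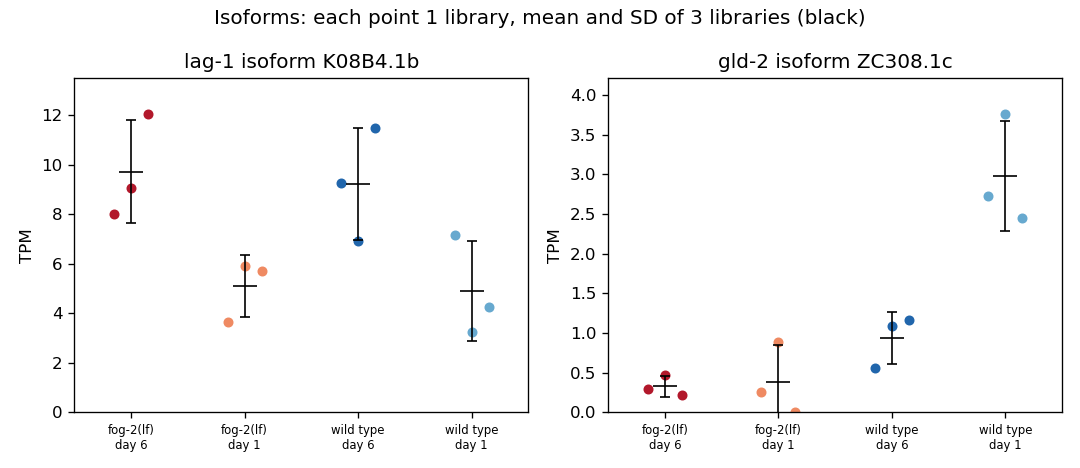
TPM of *lag-1* isoform K08B4.1b and *gld-2* isoform ZC308.1c, with 1 point per library and the mean and SD of 3 libraries in black (lower SD bars stop at 0). K08B4.1b is at 8.03 TPM or more in sixth-day *fog-2(lf)* and at most 5.9 TPM in first-day *fog-2(lf)*, and ZC308.1c is at 2.45 to 3.76 TPM in first-day wild type and at most 1.16 TPM in the other groups.

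Other genes of the Notch pathway were called about as often as all genes. Of 22 tested, 3 rose and 5 fell with age in *fog-2(lf)*, 6 rose and 6 fell with age in wild type, 4 were lower in *fog-2(lf)* on the sixth day, and 2 were higher and 1 lower in *fog-2(lf)* on the first day. These were 36.4% of the list for age in *fog-2(lf)* (39.2% of all genes), 54.5% for age in wild type (48.8%), 18.2% for genotype on the sixth day (20.3%) and 13.6% on the first (18.3%). *adm-4*, an ADAM protease of the kind that cleaves Notch receptors, averaged 21.9 CPM in *fog-2(lf)* on the sixth day and 35.1 CPM on the first, a change of −0.68 (SE 0.11, edgeR adjusted p = 0.00093), and fell also in wild type (−0.48, SE 0.11). *epn-1*, the epsin that helps endocytosis of Notch ligands, fell by 0.74 with age in *fog-2(lf)* (SE 0.10). The secreted co-ligand gene *osm-11* fell with age in *fog-2(lf)* (−0.70, SE 0.21) and in wild type (−0.52, SE 0.21), while *osm-7*, of the same family, rose in wild type (0.65, SE 0.17). Another ADAM protease gene, *sup-17*, was higher in *fog-2(lf)* on the first day (0.29, SE 0.09), as was the tetraspanin gene *tsp-12* (0.24, SE 0.06). Of 6 tested genes known as Notch targets in other tissues, 2 rose and 1 fell with age in each genotype. The share called was above that of all genes in *fog-2(lf)* (39.2%) and close to it in wild type (48.8%). Among the risers was *lst-4*, a sorting nexin gene, by 0.43 in *fog-2(lf)* (SE 0.07) and 0.24 in wild type (SE 0.07).

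Of 21 partners of FBF and other RNA regulators of the germ line, 4 rose and 3 fell with age in *fog-2(lf)*, and 3 rose and 3 fell in wild type, which is 33.3% of the list beside 39.2% of all genes, and 28.6% beside 48.8%. *nos-1*, a Nanos-family gene, rose in both, by 0.73 in *fog-2(lf)* and 0.70 in wild type (SE 0.13 each). *rnp-8*, whose protein binds GLD-2, rose by 0.54 in *fog-2(lf)* and 0.40 in wild type (SE 0.12 each). *gld-1*, a translational repressor that is itself repressed by FBF and counts in the next list too, averaged 699 CPM in wild type on the sixth day and 1040 CPM on the first (−0.57, SE 0.13, edgeR adjusted p = 0.0058). Between genotypes 3 of the 21 were higher in *fog-2(lf)* on each day, and 1 was lower on the first day. On the sixth day this was 14.3% of the list, below the 20.3% of all genes. On the first day the share called was close to that of all genes (18.3%). The higher genes included *nos-2*, another Nanos-family gene, by 0.33 on the sixth day and 0.55 on the first (SE 0.11 each). The PUF-family gene *puf-8* was also higher on the sixth day (0.34, SE 0.08).

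Of 14 mRNAs known as FBF targets, 5 rose and 1 fell with age in *fog-2(lf)*, and 1 rose and 1 fell in wild type, which is 42.9% beside 39.2% of all genes, and 14.3% beside 48.8%. The risers in *fog-2(lf)* included *htp-2*, which encodes a protein of meiotic chromosome axes (0.41, SE 0.07), and the cyclin E gene *cye-1* (0.40, SE 0.11), and the gene that fell was *egl-4*, a cGMP-dependent protein kinase gene (−0.42, SE 0.12). Higher in *fog-2(lf)* were 2 of the 14 on the sixth day (14.3%, beside 20.3% of all genes), with 0 lower. On the first day 1 was higher (7.14%, beside 18.3%), again with 0 lower. *fem-3*, which promotes the male fate and sperm production, averaged 108 CPM in *fog-2(lf)* and 72.7 CPM in wild type on the sixth day (0.57, SE 0.13, edgeR adjusted p = 0.019). On the first day it averaged 91.7 CPM in *fog-2(lf)* and 63.1 CPM in wild type (0.54, SE 0.13, adjusted p = 0.027). Of 21 genes of proliferation and DNA replication, 8 were higher in *fog-2(lf)* on the sixth day (38.1%, beside 9.83% of all genes in this direction) and 6 on the first (28.6%, beside 7.72%), among them *psf-2*, a subunit of the GINS replication complex (0.46 on the sixth day, SE 0.10). With age 5 of the 21 rose and 4 fell in *fog-2(lf)* (42.9%, beside 39.2%). In wild type 3 rose and 5 fell with age (38.1%, beside 48.8%). Of 26 germline markers, 9 rose and 3 fell with age in *fog-2(lf)* (46.2%, beside 39.2% of all genes). In wild type 3 rose and 9 fell (46.2%, beside 48.8%). On the sixth day 7 were higher and 0 lower in *fog-2(lf)* (26.9%, beside 20.3%). On the first day 1 was higher and 1 lower (7.69%, beside 18.3%). Of 19 oocyte genes, 2 rose and 8 fell with age in *fog-2(lf)* (52.6%, beside 39.2%), and 1 rose and 6 fell in wild type (36.8%, beside 48.8%). Between genotypes 8 oocyte genes were higher and 2 lower in *fog-2(lf)* on the sixth day (52.6%, beside 20.3%). On the first day 4 were higher and 2 lower (31.6%, beside 18.3%). Of 18 sperm genes, 1 rose and 2 fell with age in *fog-2(lf)* (16.7%), and 2 rose and 11 fell in wild type (72.2%). Of 12 genes first transcribed in the early embryo, 4 rose with age in *fog-2(lf)* (33.3%, beside 39.2%), and 5 rose and 4 fell in wild type (75.0%, beside 48.8%). The part of these shifts in the values of the 10 genes was not tested.

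Likeness to other genes was measured as the root-mean-square distance between log2 CPM profiles, centred on their means, over the 12 libraries, among 7394 genes of at least 10 CPM. The nearest genes to *glp-1* were *egl-27* (0.045) and *hmp-1* (0.051), and those to *lag-1* were *cul-5* and *cdc-14* (0.048 each). The nearest to *lst-1* were *sor-3* and *cutc-1* (0.062 each), and those to *sygl-1* were *mex-1* (0.077) and *gly-7* (0.079). Within the circuit, the nearest gene to *lst-1* was *sygl-1* and the reverse (0.112), and likewise for *glp-1* and *lag-1* (0.102), but many other genes were nearer, 1.37% to 2.25% of those compared for *lst-1* and *sygl-1* and 2.77% to 4.73% for *glp-1* and *lag-1*. For *gld-2* the nearest gene of the circuit was *nos-3* (0.136, with 0.595% of genes nearer). Profiles of genes that change little are near to each other by this measure, and the libraries share scaling factors.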

How the data were processed

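RNA-seq of whole adults gave 12 libraries, 3 per group, described by the study as biological replicates. The estimated counts deposited were made by the authors with kallisto in single-end mode, per isoform and without further scaling. The deposited TPM, also kallisto output, correct for effective length and have the same sum in each library. The limma fits on TPM added no further scaling between libraries. The submitters' processing notes name kallisto, sleuth and WBcel235, with versions not given in the sources used here.

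Estimated counts and TPM were summed per gene over 32905 isoforms (316 matched no gene of the WBcel235 annotation and kept their own names). Counts were rounded, kept by filterByExpr, scaled with TMM and fitted with edgeR 4.0.16 in R 4.3.3 (quasi-likelihood, age, genotype and interaction, all 12 libraries), with Benjamini-Hochberg adjustment over 14539 genes or 21695 isoforms. Calls were made at an adjusted p under 0.1, as in the study's methods. Ratios of TPM were compared with exact permutation tests.

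The 10 genes and the 10 lists were chosen with earlier results of these data known, which holds also for the rule on named genes: every gene of the circuit, *fog-2*, and up to 3 called genes per list and comparison with the largest changes at 10 CPM or more. A further selection of these is given in the text, and *gld-2* ZC308.1c and ZC308.1d were added after their values were seen.

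Alternatives were DESeq2 1.42.0, RLE factors, library totals only, TMM from 26 germline markers, no low-count filter, limma 3.58.1 on log2(TPM + 0.5), with 0.1 and 1 as other pseudocounts, an adjusted p under 0.05, only the libraries compared, the replicate number as a block, isoforms in place of gene sums, TPM or counts for the ratios, and each library left out.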

Additional observations from a re-analysis of the deposited data

Results flagged for a closer look

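*lag-2* was set apart because its age effects differed between genotypes by a test of the difference itself. The age effect in *fog-2(lf)* minus that in wild type was −1.99 (log2, SE 0.65, edgeR adjusted p = 0.081), with −1.77 in *fog-2(lf)* and 0.23 in wild type. DESeq2 gave an adjusted p of 0.040, and the range over the alternatives was 0.029 to 0.18. With 3 libraries in each group, Dixon's test of a single library far from its group was not run.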

How the results depend on the processing

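For age in *fog-2(lf)*, 4 genes were called, 2 with limma on TPM at each pseudocount, and 3 to 4 with 1 library left out. For genotype on the sixth day 1 gene, *lag-2*, was called under every alternative, leave-one-out included. For age in wild type, 1 gene was called. There were 0 with DESeq2, RLE factors, no low-count filter, only the libraries compared, isoforms or an adjusted p under 0.05, then 2 with germline-marker scaling, 6 with limma, 7 with library totals, and 0 to 2 with 1 library left out. For genotype on the first day, 2 were called. There were 0 with no filter, only the libraries compared, isoforms or an adjusted p under 0.05, then 1 with RLE factors or limma, 4 with library totals, and 0 to 2 with 1 library left out. For the interaction, 1 was called. There were 0 with no filter, isoforms or an adjusted p under 0.05, then 2 with library totals, germline-marker scaling or limma, and 0 to 2 with 1 library left out. Library totals and limma on TPM also moved the median of all genes for age in wild type, by the values given above. The cause of the differing calls was not tested.

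The replicate number as a block gave 3 calls for age in wild type (*fbf-1*, and *gld-2* at −0.32 and *nos-3* at −0.19, both lower), 4 for genotype on the first day and 0 for the interaction. Over all genes tested, 3 of 18 same-numbered pairs had a correlation of deviations over 0.1 (range −0.12 to 0.147), and 5 of 36 other pairs did. These weak correlations cannot decide whether the numbers pair the samples. For age in wild type, the block changed the standard error from 0.17 to 0.08 for *gld-2* and from 0.17 to 0.10 for *apx-1*. It left that of *fbf-1* at 0.14, and that of *lag-2* went from 0.44 to 0.49.

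For age in wild type, signs turned to called increases with library totals for *lst-1* (0.33), *sygl-1* (0.30) and *fbf-2* (0.37), and with limma for *lst-1* (0.32) and *fbf-2* (0.36 at a pseudocount of 0.5, 0.37 at 0.1 and 0.35 at 1). Of 1140 values of the 10 genes under alternatives, 1016 stayed on their side of the threshold, and among these 103 that were not called changed sign. Another 72 lost a call, 43 gained one in the same direction and 9 turned to a call of the opposite sign. The *fbf-1* to *fbf-2* ratio kept its direction with 1 library left out: 0.27 to 0.47 for age in *fog-2(lf)*, 0.33 to 0.44 for age in wild type, 0.12 to 0.23 for genotype on the sixth day and 0.09 to 0.29 on the first (log2). Ranks by CPM in place of TPM put *nos-3* first and *sygl-1* seventh in first-day wild type.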
